A study of Mus musculus with 16 samples.

Results

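The genes of 10 secreted chemokines were followed in mouse dermal fibroblasts, the connective tissue cells of the skin. They were Ccl2, Ccl7, Ccl11, Ccl19, Cxcl1, Cxcl5, Cxcl10, Cxcl12, Cxcl14 and Cx3cl1, listed by name; each was read from 1 probe set, the brightest on average of those that carry its symbol alone. All 10 of 10 listed genes had such a probe set and passed the filter on low values, among 14819 genes that passed out of 17097. The arrays measured 16 RNA samples in 4 groups of 4: fibroblasts cultured from old mice, fibroblasts cultured from young mice, fibroblasts profiled directly after isolation from old mice (called in vivo in the labels), and the same from young mice. All mice were female C57Bl/6 of 18 months (old) or 2 months (young), and each sample held 5000 cells whose cDNA was amplified for 23 cycles. Each mouse gave cells to an in vivo and a cultured sample, but no label ties a sample to its mouse or to its collection day, and p-values therefore treat the samples as independent. How long and in what medium the cells were cultured is not stated in the sources used here.

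Chemokines are small secreted proteins that draw leukocytes along a gradient by binding receptors coupled to G proteins. Dermal fibroblasts make several of them, some steadily and others after inflammatory signals such as interleukin 1, tumour necrosis factor or interferons, which act through NF-kB, AP-1 and interferon-regulated transcription factors. Names in Ccl, Cxcl and Cx3cl follow the spacing of the first cysteines of the protein.

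Levels are log2 intensities, so a difference of 1 is a doubling of signal, and levels of different genes are not compared because each probe set binds with its own strength. The 95th percentile of 12 spike-in poly-A control probe sets was 4.34, a guide to how low a signal can be read. The fibroblast marker Col1a1, which encodes a chain of the main skin collagen, was high in all groups. It averaged 12.2 in old cultured, 12.2 in young cultured, 12.5 in old in vivo and 12.6 in young in vivo cells. Pdgfra, a growth factor receptor of fibroblasts, was little above 4.34, between 4.63 and 5.05 in group means. Col1a1 and Pdgfra were the least changed of 6 fibroblast markers, all of which were lower in culture. Lum, a collagen-binding proteoglycan, changed by -4.64 ± 0.11, Dpt by -2.85 ± 0.08, Dcn by -1.68 ± 0.07, Col1a2 by -1.28 ± 0.10, Pdgfra by -0.32 ± 0.08 and Col1a1 by -0.31 ± 0.05 on the log2 scale (limma, largest adjusted p = 0.000943). For age in vivo, Col1a2 was the only 1 of the 6 to pass, lower in old mice (-0.635 ± 0.13, limma adjusted p = 0.0493). One array stood apart. Old in vivo replicate 1 had 9.68 for Krt5 and 7.11 for Krt14, keratins of basal keratinocytes, against 5.74 to 6.14 and 4.78 to 4.92 in the other old in vivo arrays and 5.94 to 6.30 and 4.62 to 4.92 in the young in vivo arrays. Krt10, a keratin of upper epidermal layers, went the other way: it was 6.65 there, the lowest of the 8 in vivo arrays, which otherwise had 7.35 to 7.51 in old and 6.72 to 7.10 in young mice. The same array had 8.14 for Cxcl9 and 8.17 for Cxcl13, chemokines for T and B cells. Differences of the chemokines between the ages in vivo are therefore given below with and without it. Age results of other single genes are given with all arrays only.

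Culture was the larger difference. Averaged over both ages, 8 of the 10 chemokines passed the test (limma, Benjamini-Hochberg adjusted p under 0.05 over all 14819 genes), 7 lower and 1 higher in cultured cells. That share has to be read against all genes, of which 79.5% passed, 44.7% lower and 34.8% higher in culture; scaled to a common 75th percentile, 32.5% of the calls were higher, against 43.7% as deposited. The size of the change set some members apart more than the count did: 4 of the 10 changed by at least 2 log2 units, as did 6.33% of all genes; with the mean over all probe sets of a gene, 3 of the 10 did. For the first 4, Ccl11, Ccl19, Cxcl10 and Cxcl12, no cultured array reached any in vivo array, which was so for 45.1% of all genes. Without old in vivo replicate 1 the same 8 members passed, with changes such as -1.10 for Ccl2 and -3.63 for Cxcl10.

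Ccl11 (eotaxin), which draws eosinophils, had 5.50, 5.40, 5.31 and 5.66 in old cultured cells and 5.81, 5.71, 5.52 and 5.74 in young cultured cells, against 10.21, 9.66, 9.73 and 9.58 in old in vivo and 9.33, 9.37, 9.31 and 9.41 in young in vivo cells. It was lower in culture by 15.9-fold, a log2 change of -3.99 ± 0.08 (standard error of the fit, here and below; adjusted p = 3.2e-16). Ccl19, a ligand of the receptor that guides T cells and dendritic cells into lymph nodes, had 6.77, 6.80, 6.35 and 6.70 in old cultured and 7.0, 6.72, 6.37 and 7.20 in young cultured cells, against 10.96, 10.79, 11.09 and 10.79 in old in vivo and 10.28, 9.92, 10.38 and 10.45 in young in vivo cells. Its log2 change was -3.84 ± 0.11 (14.4-fold lower, adjusted p = 1.84e-14). RefSeq lists the pseudogenes Ccl19-ps1, Ccl19-ps2 and Ccl19-ps3 on chromosome 4 with Ccl19, so how much of this signal belongs to Ccl19 itself is uncertain.

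Cxcl10, the interferon-induced ligand of Cxcr3 on T cells, had 4.68, 4.49, 4.44 and 4.23 in old cultured and 5.04, 4.55, 4.39 and 4.83 in young cultured cells, against 9.67, 7.96, 8.88 and 8.19 in old in vivo and 8.75, 7.39, 7.71 and 8.46 in young in vivo cells. The cultured values lay near the 4.34 of the control probe sets, and the in vivo arrays spread over more than 2 log2 units. The change was -3.79 ± 0.23 (13.9-fold lower, adjusted p = 1.4e-10). Cxcl12, which retains and guides cells that carry Cxcr4, had 8.27, 7.27, 6.41 and 5.56 in old cultured and 6.59, 6.76, 6.58 and 6.97 in young cultured cells, against 10.63, 10.02, 9.82 and 9.77 in old in vivo and 9.52, 9.65, 9.51 and 9.67 in young in vivo cells. Its change was -3.02 ± 0.27 (8.13-fold lower, adjusted p = 2.23e-08), but -0.77 (adjusted p = 0.0033) with the mean over its 3 probe sets, which disagreed, as described below. The old cultured arrays differed among themselves far more than the young ones.

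**Figure D1:**
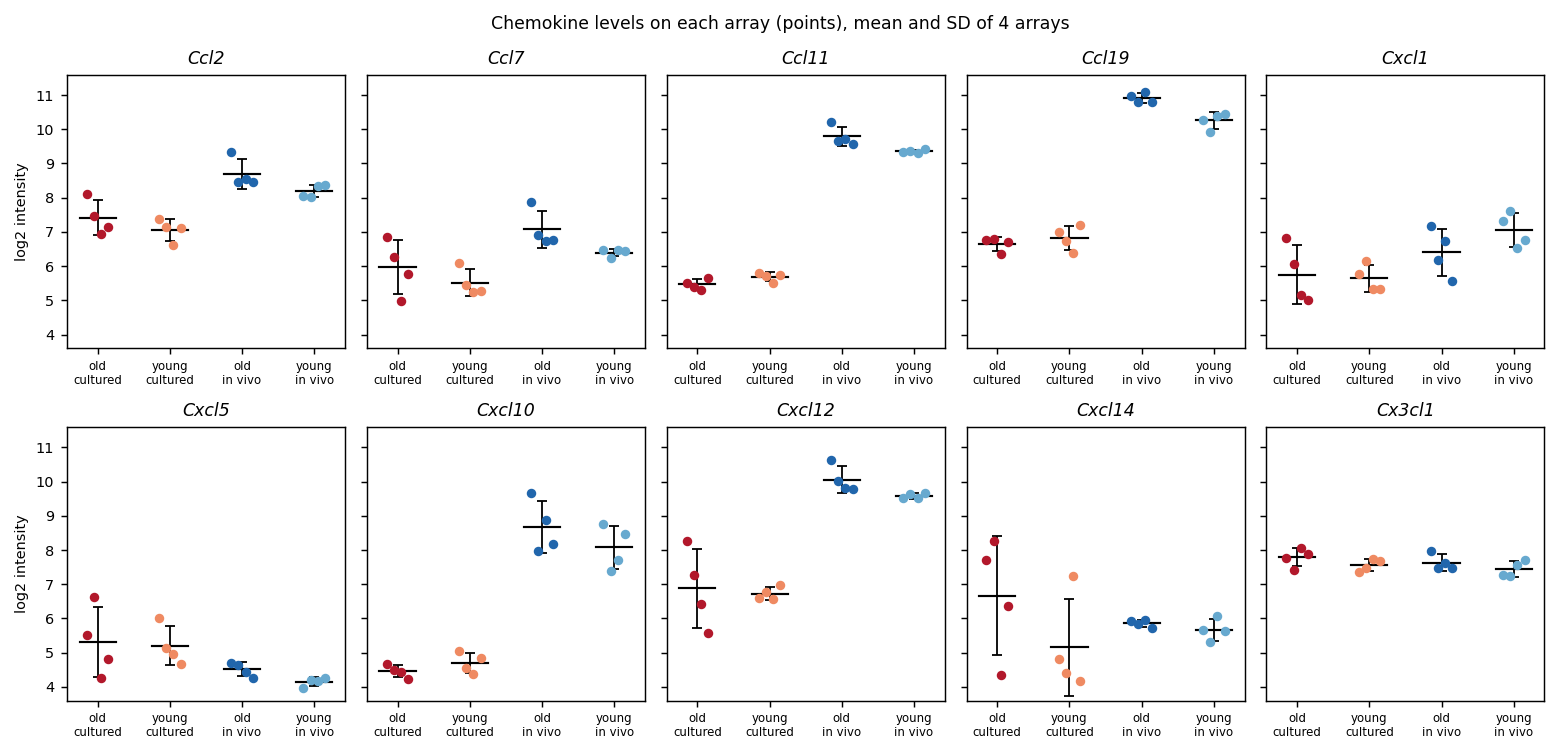
Log2 intensity (vertical axis) of the 10 chemokines on each of 16 arrays; points are arrays, and lines and bars are the mean and SD of the 4 arrays of a group. Ccl11, Ccl19, Cxcl10 and Cxcl12 show no overlap of cultured with in vivo arrays, while Cxcl14 ranges from 4.17 to 8.25 among the cultured arrays.

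The promoters of 6 of the 10 members were in the RefSeq table (GRCm38.p6), each running from 250 bases before to 50 bases after the start of the gene. The 4 shown are those of 3 of the members that fell most and, for comparison, of the inflammatory gene Cxcl1; capitals mark matches, on either strand, to the NF-kB motif GGGNNNNNCC, the interferon-response motif GAAANNGAAA or the AP-1 motif TGANTCA.
Cxcl10, chr5:92348840-92349139, minus strand: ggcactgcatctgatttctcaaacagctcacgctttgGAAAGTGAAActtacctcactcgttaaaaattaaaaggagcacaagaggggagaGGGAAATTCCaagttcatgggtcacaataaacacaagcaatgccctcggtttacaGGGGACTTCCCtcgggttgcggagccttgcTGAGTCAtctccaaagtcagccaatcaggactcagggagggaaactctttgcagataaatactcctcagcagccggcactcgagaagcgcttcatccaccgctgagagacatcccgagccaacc
Ccl19, chr4:42756316-42756615, minus strand: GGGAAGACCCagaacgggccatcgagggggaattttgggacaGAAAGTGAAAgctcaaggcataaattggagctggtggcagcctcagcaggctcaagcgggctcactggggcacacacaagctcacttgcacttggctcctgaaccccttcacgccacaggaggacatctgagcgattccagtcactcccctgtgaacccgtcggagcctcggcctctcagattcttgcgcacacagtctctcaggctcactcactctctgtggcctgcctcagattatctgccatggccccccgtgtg
Cxcl1, chr5:90890995-90891294, plus strand: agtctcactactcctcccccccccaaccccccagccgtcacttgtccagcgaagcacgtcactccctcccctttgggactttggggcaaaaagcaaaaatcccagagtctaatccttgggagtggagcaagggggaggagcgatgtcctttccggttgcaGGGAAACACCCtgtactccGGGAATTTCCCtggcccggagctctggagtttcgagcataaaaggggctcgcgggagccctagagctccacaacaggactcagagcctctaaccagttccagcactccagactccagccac
Cxcl12, chr6:117168285-117168584, plus strand: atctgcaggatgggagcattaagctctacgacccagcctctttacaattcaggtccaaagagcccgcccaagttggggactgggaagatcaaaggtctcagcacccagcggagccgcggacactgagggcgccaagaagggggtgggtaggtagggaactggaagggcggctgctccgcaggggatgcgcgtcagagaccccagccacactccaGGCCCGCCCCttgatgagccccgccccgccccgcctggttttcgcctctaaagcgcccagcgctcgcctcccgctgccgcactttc
The interferon-response motif was found in Cxcl10 from -213 to -204 and in Ccl19 from -208 to -199 relative to the start, with the same 10 letters GAAAGTGAAA, and 3.44% of 32851 promoters of this length held a match. It was also found in Cxcl14 from -172 to -163. The NF-kB motif, which is loose and occurs in 50.8% of promoters, was found once in Ccl19 and Cxcl12 and at 2 places in Cxcl1 and in Cxcl10, where matches on both strands overlap. The AP-1 motif, in 7.81% of promoters, was found in Cxcl10 alone among the 6, from -74 to -68. A match is a string of letters and does not show that a factor binds there.

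Ccl2, Ccl7 and Cxcl1 fell less. Ccl2 (MCP-1) and Ccl7 (MCP-3) draw monocytes through Ccr2, and their genes follow each other, with Ccl11 next, on chromosome 11. Ccl2 had 8.11, 7.47, 6.94 and 7.13 in old cultured and 7.39, 7.13, 6.62 and 7.10 in young cultured cells, against 9.35, 8.46, 8.54 and 8.45 in old in vivo and 8.06, 8.02, 8.33 and 8.38 in young in vivo cells, a change of -1.21 ± 0.17 (adjusted p = 5.93e-06). Old cultured replicate 1 reached the lower young in vivo arrays. Ccl7 had 6.86, 6.28, 4.99 and 5.76 in old cultured and 6.09, 5.44, 5.25 and 5.28 in young cultured cells, against 7.88, 6.91, 6.73 and 6.77 in old in vivo and 6.46, 6.23, 6.47 and 6.43 in young in vivo cells, a change of -0.99 ± 0.23 (adjusted p = 0.000851). The 2 most alike genes of Ccl2 over the 16 arrays, after centring each gene, were Lifr and Phka2, with root mean square differences of 0.22 and 0.23, and Ccl7 had 0.25, at rank 5 of all genes.

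Profiles of the 4 members that fell most were compared in the same way. Ccl11 was closest to Osr2 (0.15) and Scn7a (0.17), Ccl19 to Flt3l and Serpina3n (0.22 each), Cxcl10 to H2-Q5 (0.26) and AW112010 (0.30), and Cxcl12 to Dpep1 and Efemp1 (0.37 each). Ccl11 and Ccl19 differed from each other by 0.23, which put Ccl19 at rank 7 of all genes for Ccl11. Cxcl1 was closest to Runx1t1 (0.40) and Hbp1 (0.41), a weaker likeness. These are descriptions over 16 arrays that share the culture difference.

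Cxcl1 and Cxcl5 draw neutrophils through Cxcr2. Cxcl1 had 6.82, 6.05, 5.15 and 5.0 in old cultured and 5.76, 6.14, 5.34 and 5.32 in young cultured cells, against 7.16, 6.19, 6.72 and 5.57 in old in vivo and 7.33, 7.61, 6.53 and 6.77 in young in vivo cells. It fell by 1.04 ± 0.27 on the log2 scale (adjusted p = 0.00247), with old cultured and old in vivo arrays overlapping. Cxcl5 was the one member that rose: it had 5.53, 6.63, 4.25 and 4.80 in old cultured and 6.00, 5.15, 4.95 and 4.68 in young cultured cells, against 4.71, 4.64, 4.43 and 4.26 in old in vivo and 3.98, 4.20, 4.17 and 4.27 in young in vivo cells, a change of 0.92 ± 0.26 (adjusted p = 0.00427). Every young in vivo value was under the 4.34 of the control probe sets, so the rise starts from a signal at background.

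Cxcl14 and Cx3cl1 did not pass. Cx3cl1 (fractalkine), made as a membrane-bound protein, had 7.78, 7.43, 8.05 and 7.89 in old cultured and 7.36, 7.47, 7.74 and 7.69 in young cultured cells, against 7.98, 7.48, 7.61 and 7.46 in old in vivo and 7.28, 7.24, 7.55 and 7.72 in young in vivo cells. Its difference of 0.14 had a 95% interval from -0.09 to 0.36. Cxcl14, a chemokine of resting skin, had 7.71, 8.25, 4.36 and 6.36 in old cultured and 4.81, 4.40, 7.23 and 4.17 in young cultured cells, against 5.92, 5.85, 5.96 and 5.72 in old in vivo and 5.66, 5.30, 6.07 and 5.62 in young in vivo cells. Cultured arrays of either age lay both above and below all in vivo arrays, and the interval of the difference, -0.88 to 1.18, was correspondingly wide.

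**Figure D2:**
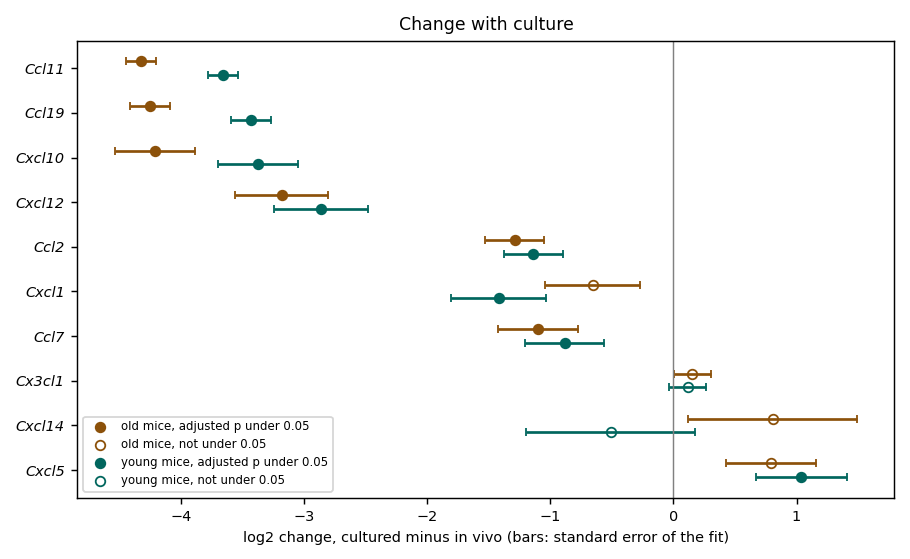
Log2 change with culture (horizontal axis) of each chemokine in old and in young mice; bars are standard errors of the fit, and filled points have an adjusted p under 0.05. Ccl11 changed by -4.33 in old and -3.66 in young mice, at the far left, while Cxcl14 by 0.81 in old and Cxcl5 by 1.04 in young mice stand farthest right.

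Taken by age, 6 members passed in old mice, all lower in culture, beside 62.8% of all genes (32.5% lower), and 8 passed in young mice, 7 lower and 1 higher, beside 71.2% of all genes (38.6% lower and 32.6% higher). Scaling to a common 75th percentile gave shares of higher calls of 34.2% in old and 31.4% in young mice, against 48.1% and 45.8% as deposited. Cxcl1 (-0.66 ± 0.39, adjusted p = 0.147) and Cxcl5 (0.79 ± 0.37, adjusted p = 0.0702) missed the threshold in old mice. In young mice Ccl7 lost its call without young cultured replicate 3 or 4 (adjusted p = 0.0575 and 0.0558), and Cxcl5 without young cultured replicate 1 (adjusted p = 0.0762). In old mice Cxcl1 passed without old cultured replicate 1 or old in vivo replicate 4 (adjusted p = 0.023 and 0.0476), Cxcl5 without old cultured replicate 3 or 4 (adjusted p = 0.00808 and 0.0459), and Cxcl14 without old cultured replicate 3 (1.58, adjusted p = 0.024).

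Whether the change differed with age was tested by the interaction, for which 87 genes, 0.587% of all, passed and none of the 10 members did. The members nearest to the threshold were Ccl11, whose fall was larger in old mice by a difference of -0.67 ± 0.17 (adjusted p = 0.0878), and Ccl19 at -0.82 ± 0.23 (adjusted p = 0.131). Without young cultured replicate 3, Ccl19 passed at -0.97 (adjusted p = 0.0487).

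Markers of other skin cells also differed between cultured and in vivo samples. The mean level of 6 macrophage and monocyte markers was 4.52 to 4.61 in old cultured and 4.48 to 4.69 in young cultured arrays, against 5.31 to 5.36 in old in vivo and 5.28 to 5.60 in young in vivo arrays; Cd68 differed most, at 5.52 and 5.50 in old and young cultured cells against 8.10 and 8.09 in old and young in vivo cells. Csf1r, another of these markers, did not fall in old mice (6.51 cultured and 6.46 in vivo, limma adjusted p = 0.792). In young mice it changed by -0.90. Adgre1, Itgam and Ptprc, which define macrophages and leukocytes, stayed under 4.34 on every array. The mean of 4 keratinocyte markers was 4.76 to 4.89 in old cultured and 4.74 to 4.85 in young cultured arrays, against 5.43 to 7.08 in old in vivo and 5.32 to 5.58 in young in vivo arrays. Of these markers Krt1 did not pass for culture, and in young mice only Krt10 did. Among 4 endothelial markers 3 fell, Kdr by 2.35 ± 0.20, while Pecam1 and Cdh5 averaged under 5 in every group. Among 3 tested markers of pericytes and smooth muscle, Myh11, a smooth muscle myosin, rose by 4.36 ± 0.14, Des fell by 0.82 ± 0.09 and Rgs5 did not pass. The 3' minus 5' difference of the beta-actin probe sets, a sign of RNA length, was 0.03 to 0.18 in old cultured and 0.03 to 0.13 in young cultured arrays, against -0.56 to -0.31 in old in vivo and -0.49 to -0.32 in young in vivo arrays. In bulk RNA, fewer cells of a type and less RNA per cell cannot be told apart, and the part of these cell markers and of RNA length in the chemokine changes was not tested.

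Between the ages the in vivo cells differed in few genes: 200 of 14819 passed, or 1.35%, of which 135 (0.911% of all genes) were higher in old mice, 67.5% of the calls. Under the 75th percentile scaling 43.9% of the calls were higher and under cyclic loess 51.1%. One chemokine passed. Ccl19 was 0.65 ± 0.13 higher in old in vivo cells (means 10.9 ± 0.15 old and 10.3 ± 0.24 young, SD, n = 4 each; limma adjusted p = 0.0468), higher on 4 of 4 old arrays than on any young one. The call was at its limit: leaving out any 1 of the 8 arrays ended it, with differences of 0.54 to 0.71, and without old in vivo replicate 1 the difference was 0.63 (adjusted p = 0.0592). With all arrays but tested among probe sets instead of genes, Ccl19 did not pass (limma adjusted p = 0.0505).

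Another 4 members showed the same separation without passing. Ccl2, Ccl7, Ccl11 and Cxcl12 were each higher on all 4 old in vivo arrays than on all 4 young ones, so that 5 of the 10 members had groups that do not overlap, against 8.53% of all genes. The differences were 0.50 ± 0.20 for Ccl2, 0.68 ± 0.23 for Ccl7, 0.44 ± 0.14 for Ccl11 and 0.47 ± 0.17 for Cxcl12, with adjusted p between 0.149 and 0.25. For each of the 5, the exact two-sided permutation test gave p = 0.0286 unadjusted, the smallest that 70 labelings allow. Groups of 4 that do not overlap always give this value, so it adds nothing to the separation. For Ccl2 the lowest old array had 8.45 and the highest young one 8.38. Old in vivo replicate 1, the array with high Krt5 and Krt14, was the highest in vivo array for Ccl2, Ccl7, Ccl11 and Cxcl12. It was also the highest for Cxcl5 (4.71), Cxcl10 (9.67) and Cx3cl1 (7.98), but not for Ccl19, Cxcl1 or Cxcl14. Without it the differences became 0.29 for Ccl2, 0.41 for Ccl7, 0.30 for Ccl11 and 0.28 for Cxcl12, with adjusted p from 0.092 to 0.264. Csf1r, a receptor of macrophages, was lower in old in vivo cells (-1.08 ± 0.15, limma adjusted p = 0.00995). The 3 other tested macrophage and monocyte markers did not pass and differed upward, Cd14 by 0.28, Lyz2 by 0.16 and Cd68 by 0.01.

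**Figure D3:**
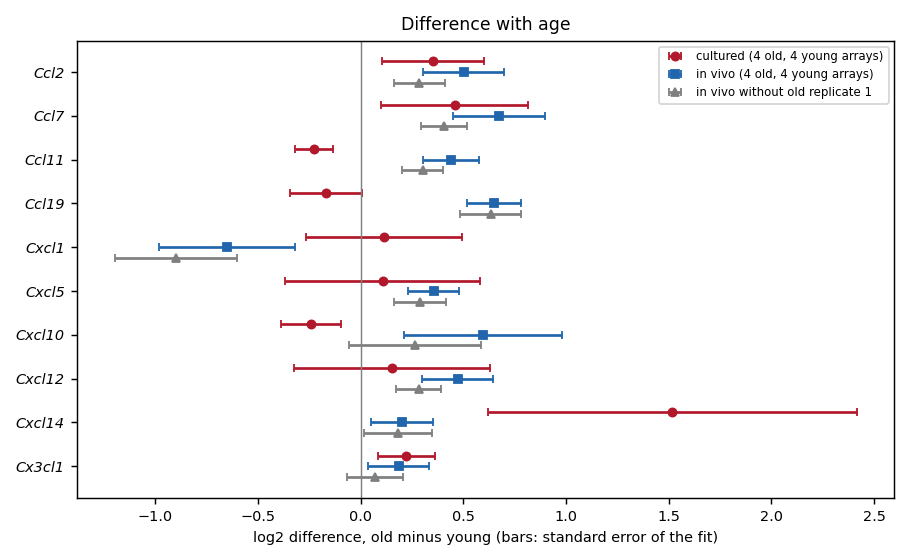
Log2 difference of old minus young (horizontal axis) for each chemokine in cultured arrays, in vivo arrays, and in vivo arrays without old replicate 1; bars are standard errors of the fit. In vivo Ccl2 stands at 0.50 and at 0.29 without that array, and Ccl19 at 0.65 and 0.63.

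The other 5 members overlapped between the ages in vivo and did not pass. Cxcl1 differed the other way, by -0.65 with a 95% interval from -1.38 to 0.08, and Cxcl10 by 0.60 with an interval from -0.25 to 1.45. For Cxcl5 the interval was 0.08 to 0.63, for Cxcl14 -0.13 to 0.53 and for Cx3cl1 -0.15 to 0.52. Without old in vivo replicate 1 the differences were -0.90 for Cxcl1, 0.27 for Cxcl10, 0.29 for Cxcl5, 0.18 for Cxcl14 and 0.07 for Cx3cl1. None of these passed (limma adjusted p from 0.147 to 0.842).

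In cultured cells 0 of 14819 genes passed for age by limma (percent called 0.0, with 533 genes at an unadjusted p under 0.05), also under every alternative run, and 0 of the 10 chemokines passed, each with an adjusted p of 0.997. None of the members had ages that did not overlap, against 2.06% of all genes. The intervals were wide where the arrays spread: 1.52 for Cxcl14 had an interval from -0.51 to 3.54, and 0.15 for Cxcl12 one from -0.92 to 1.22. Ccl11 had the narrowest, -0.44 to -0.02 around -0.23.

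The spread between arrays of one age and condition was itself large for these genes. In culture the SD of 6 of the 10 members exceeded that of 95% of the genes tested, a share that 5% of all genes reach, and in vivo 2 did. Cxcl14 had an SD of 1.58 in culture, higher than 99.95% of genes, against 0.24 in vivo, and Cxcl5 and Cxcl12 had 0.83 each in culture, against 0.17 and 0.29 in vivo. Cxcl10 went the other way, with 0.24 in culture and 0.71 in vivo. The median SD of all genes was 0.13 in culture and 0.19 in vivo. The SD of 1.58 for Cxcl14 is that of probe set 1418456, with SDs of 1.73 in old and 1.41 in young cultured arrays. Another probe set of Cxcl14, 1418457, had 0.49 in old and 0.37 in young cultured arrays. Both are smaller SDs, but above 0.35, the 95th percentile of genes in culture. The probe sets shared their highest (8.25 and 6.75) and lowest (4.36 and 5.56) old cultured arrays. They also shared the highest young cultured array (7.23 and 6.06), but not the lowest. In vivo, 1418457 had 0.36 in old and 0.30 in young arrays.

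**Figure D4:**
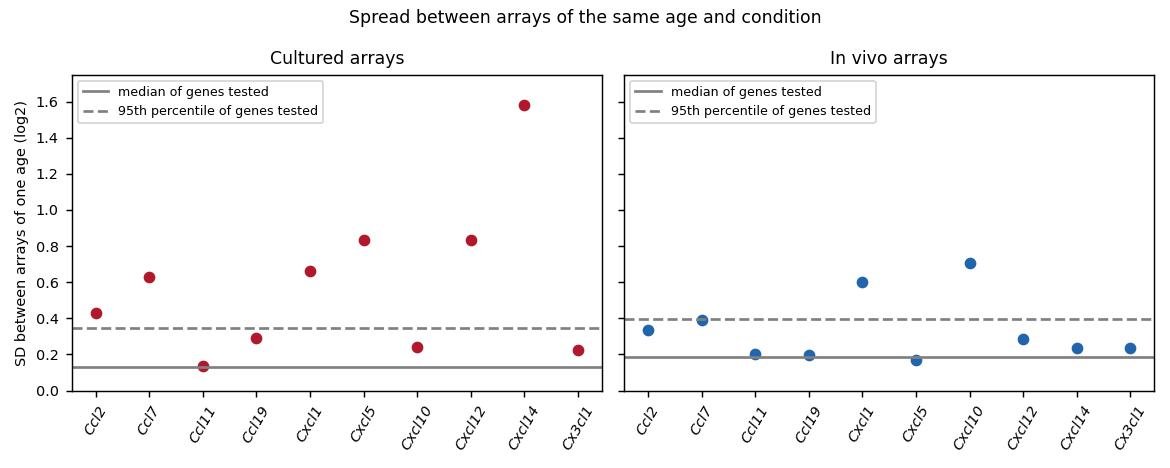
SD between arrays of one age (vertical axis, log2) for each chemokine in cultured and in vivo arrays, with lines for the median and the 95th percentile of all genes tested. Of the 10 points, 6 lie above the upper line in culture, with Cxcl14 at 1.58, and 2 do so in vivo.

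Some members varied together from array to array. Among 8 relations tested, Ccl2 and Ccl7 had Pearson r = 0.917 in the 8 cultured arrays (exact permutation p = 0.000943, adjusted 0.00566) with Spearman rho = 0.970 (exact permutation p = 0.000496), and r = 0.959 without the 2 farthest arrays. In the 8 in vivo arrays r was 0.960 (exact permutation p = 0.00141, adjusted 0.00566) with rho = 0.857 (exact permutation p = 0.0107), and fell to 0.654 without the 2 farthest. Once the mean of each age was removed, r was 0.929. Ccl7 and Ccl11 had r = 0.957 in vivo (exact permutation p = 0.00265, adjusted 0.00708) with rho = 0.714 (exact permutation p = 0.0576) and r = 0.874 without the 2 farthest. With the mean of each age removed their r was 0.918. In culture their r was 0.019 (exact permutation p = 0.966) with rho = 0.071 (exact permutation p = 0.882). This low r depended on few arrays: it was 0.761 without the 2 farthest, and 0.431 once the mean of each age was removed. Ccl2 and Cxcl1 had r = 0.812 in culture (exact permutation p = 0.0145, adjusted 0.0291), but rho = 0.647 (exact permutation p = 0.0917) and r = 0.630 without the 2 farthest. In vivo their r was -0.11 (exact permutation p = 0.782), and 0.37 once the mean of each age was removed. Cxcl1 and Cxcl5 did not pass, with r = 0.599 in culture (exact permutation p = 0.119) and -0.19 in vivo (exact permutation p = 0.648). Without the 2 farthest arrays their r was 0.937 in culture and -0.338 in vivo. All permutation p-values here were taken with the age means left in. Whether a relation differed between cultured and in vivo arrays was not tested. In culture, replicate 1 of the old group was the highest array for Ccl2, Ccl7, Cxcl1 and Cxcl12.

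Probe sets of one gene disagreed most for Cxcl12, as shown in the plot of its 3 probe sets. Probe set 1448823, used above, fell by 3.02, whereas 1417574 rose by 1.17 ± 0.32 in culture (adjusted p = 0.00306) and 1439084 fell by 0.45 ± 0.10 (adjusted p = 0.000469). Probe set 1417574 had 7.93, 6.88, 5.90 and 4.92 in old cultured and 5.59, 5.52, 6.17 and 6.54 in young cultured cells, against 5.86, 5.23, 4.83 and 5.01 in old in vivo and 4.60, 4.67, 4.99 and 4.93 in young in vivo cells. Its order among the old cultured arrays was the same as that of 1448823. Which transcripts of Cxcl12 each probe set binds was not analysed here, and the size of the fall given for Cxcl12 is that of probe set 1448823 alone. Cx3cl1 probe set 1415803 rose with culture in old mice (0.25 ± 0.10, limma adjusted p = 0.0446), where 1415804, used above, did not pass (0.155, adjusted p = 0.378). In young mice 1415803 changed by -0.05 (limma adjusted p = 0.692). Averaged over ages, neither 1415803 (0.10, limma adjusted p = 0.21) nor Cxcl14 probe set 1418457 (0.08, adjusted p = 0.667) passed.

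**Figure D5:**
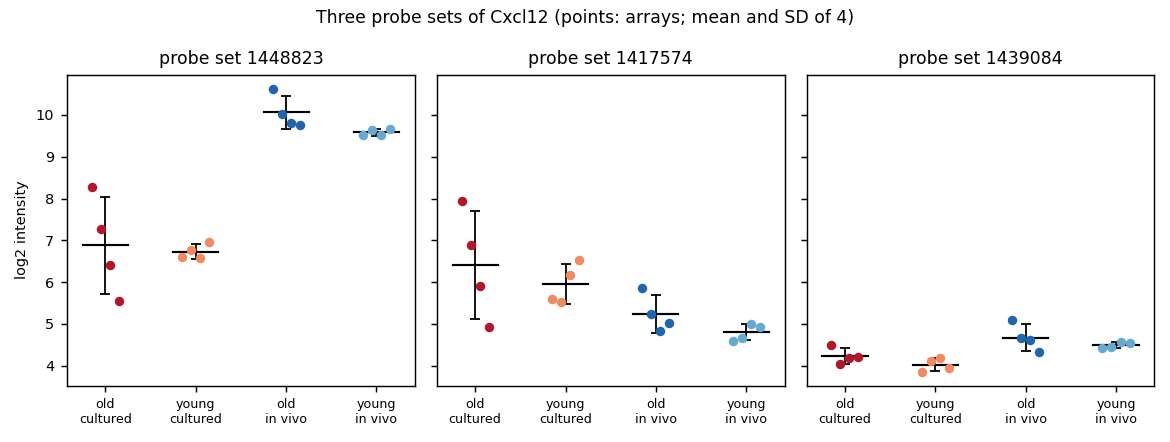
Log2 intensity (vertical axis) of the 3 Cxcl12 probe sets on 16 arrays; points are arrays, and lines and bars are the mean and SD of 4. Probe set 1448823 is lower in cultured than in in vivo arrays, and 1417574 is on average higher.

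The rest of the chemokine system is given for the list of related genes, not as evidence on the members; the counts stand beside 44.7% of all genes lower and 34.8% higher in culture. Of 22 other chemokine ligands tested (27 listed), 19 fell, 1 rose and 2 did not pass in culture, with a median change of -0.45 against -0.11 over all genes. The largest falls were in Ccl27a, a skin T cell chemokine (-3.56 ± 0.09), Ccl8 (-3.52 ± 0.11) and Cxcl9 (-1.27 ± 0.48), and Ppbp rose by 1.19 ± 0.22. Without old in vivo replicate 1 the change of Cxcl9 was -0.80 ± 0.26 (adjusted p = 0.0112), and with all arrays it did not pass in old (adjusted p = 0.0533) or in young mice (adjusted p = 0.197) taken alone. Ccl27a was also 0.67 ± 0.12 higher in old in vivo cells (adjusted p = 0.0255). It lies in the same region of chromosome 4 as Ccl19, where duplicated copies exist. Copies of Ccl27a itself were not looked up, so how much of its signal is its own is also uncertain.

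Of 14 chemokine receptors tested (23 listed), 10 fell, 1 rose and 3 did not pass. The largest falls were in the scavenging receptors, which take up chemokines without signalling through G proteins: Ackr4, which removes Ccl19, changed by -3.50 ± 0.14, Ackr3, which binds Cxcl12, by -2.70 ± 0.22, and Ackr2, which takes up inflammatory CC chemokines, by -2.32 ± 0.13. Of 18 receptors for inducing signals, 15 fell, 1 rose and 2 did not pass, with the largest falls in Tlr3 (-2.20), Il13ra1 (-1.98) and Tlr2 (-1.78). All 18 tested transcription factors and feedback genes of NF-kB and interferon signalling fell (21 listed, median change -1.80), led by Socs3 (-3.63), Irf1 (-3.51) and Stat2 (-2.76). Of 10 proteases that cut chemokines, 8 fell and 2 rose, with Dpp4, which trims the start of Cxcl12 and Cxcl10, at -3.55, Mmp3 at -3.42 and Ctss at -2.58. Of 13 heparan sulfate carriers and enzymes, which hold chemokines at the cell surface, 9 rose, 3 fell and 1 did not pass: Gpc1 rose by 2.54 and Hs2st1 by 2.35, and Sulf2 fell by 2.91. In the age comparisons and the interaction no gene of these lists passed apart from Ccl27a.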

How the data were processed

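RNA of 16 samples was hybridised to 1-colour Affymetrix arrays, 1 per sample. The deposited log2 values come from RMA with the affy package, per the submitters' processing notes; the log base is not stated and was taken from their range. They were used as deposited (array medians 4.74 to 4.92). Of 45141 probe sets, 28898 carried 1 gene symbol, 551 several and 15692 were not listed; 28689 matched RefSeq. Each gene was its highest-mean probe set, kept if above 3.87, the 25th percentile, on at least 4 arrays. limma 3.58.1 in R 4.3.3 (lmFit, eBayes) tested culture and the interaction on all 16 arrays and age on the 8 arrays of each condition, with Benjamini-Hochberg adjustment over 14819 genes. Single probe sets were tested in separate fits of all 1-symbol probe sets above that filter. Their p-values were adjusted over those probe sets. Permutation tests used SciPy 1.17.1, and fits were tested on simulated data. The 10 members are always named; from each related list, the 3 largest changes among genes called in culture and any called for age or interaction; single genes that rose in a list were named after their values were seen. The members and lists were chosen with earlier results of these data known. Replicates are numbered in accession order and pair nothing. Of the samples, only mice are stated to be separate, and the number of arrays limits the precision. No 2 arrays were identical (0 pairs). Alternatives covered scaling, filter, probe set choice, weights, the prior and leaving out each array.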

Additional observations from a re-analysis of the deposited data

Results flagged for a closer look

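Among 40 sets of 4 arrays (10 chemokines in 4 groups), 3 held an array far from the other 3, with a gap beyond the 95% critical value of Dixon's test; chance alone gives about 1 in 20. Ccl2 was 9.35 in old in vivo replicate 1, with the others at 8.45 to 8.54, and Ccl7 was 7.88 in the same array, with the others at 6.73 to 6.91. Both are the array with high Krt5 and Krt14, and both age differences shrink without it, as given above. Ccl7 was 6.23 in young in vivo replicate 2, with the others at 6.43 to 6.47.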

How the results depend on the processing

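No result changed direction while called under any alternative. For age in vivo, the 200 genes became 392 with array weights and 900 with a spread shared over 16 arrays, and 60 to 306 when 1 array was left out. The 1 chemokine became 0 with 75th percentile scaling, cyclic loess or no low-value filter (limma adjusted p = 0.0749, 0.091 and 0.0556 for Ccl19), and 0 to 0 when 1 array was left out. It became 2 with the shared spread, adding Ccl11 (limma adjusted p = 0.0391). Unadjusted exact permutation tests gave 5, the members whose ages did not overlap, for which that result is fixed. For the interaction, 87 genes became 185 with array weights and 44 to 200 when 1 array was left out, and members called were 0 to 1. The cause was not tested. Cxcl5 also passed for culture in old mice under cyclic loess (adjusted p = 0.043). The 75th percentile scaling moved the median culture change of all genes by -0.20. No paired analysis was possible because no label ties the samples to a mouse. Signal over background limits Cxcl5 in vivo and Cxcl10 in culture, and 4 arrays a group limit the age tests.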
